A study of Mus musculus with 10 samples.

Results

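The genes described here are 36 glycolysis and hypoxia response genes, taken by symbol from a list, out of 55401 rows of 1 gene count table. The list names 21 genes of glycolysis, with its glucose transporter and its regulators, and 15 other genes of the hypoxia pathway. The 2 sets are counted apart, and all 36 symbols were found. The table holds the RNA of mouse forelimb-bud ectoderm at stage E9.75 from 3 double knockout libraries (DKO, labelled as lacking both Sp8 and Sp6) and 3 libraries of wild-type littermates (WT). Sp8 and Sp6 are zinc-finger transcription factors of the Sp family that are needed in limb ectoderm for the apical ectodermal ridge, the signalling rim of the bud. A digestion in 0.25% trypsin, 20 min long and on ice, let the ectoderm be taken off with forceps, and each library pooled the tissue of about 2 buds. The labels do not describe the mutant alleles further, and they do not say which embryo or litter a library came from, so p-values measure only the spread between these libraries. The RNA libraries of stage E10.5 were not analysed here. Libraries are named by the numbers in the table's column names: DKO 17, DKO 40 and DKO 41, and WT 32, WT 53 and WT 56.

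Glycolysis turns glucose into pyruvate in the cytoplasm, and lactate dehydrogenase can reduce the pyruvate to lactate in place of its oxidation in mitochondria. Embryonic tissues before and around the start of organ formation are known for a high rate of glycolysis. The hypoxia-inducible factors (HIF) are pairs of an alpha and a beta subunit. With oxygen, prolyl hydroxylases of the EGLN family mark the alpha subunit, VHL binds the marked protein, and it is degraded. At low oxygen the pair binds short promoter elements with the core ACGTG or GCGTG (the hypoxia response element, HRE) and raises the transcription of glycolytic enzymes, Vegfa and other targets. The protein of HIF is regulated mainly by its stability, so an RNA level is not a measure of HIF activity.

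The promoter windows of 5 members called in the test below and of Ldha, the glycolysis member with the highest level per length in WT, are printed to show where the core letters of the HRE stand in them, if at all. Each is 300 bases around a RefSeq transcript start on GRCm38.p6, 250 before it and 50 after it, written 5′ to 3′ on the gene's strand. Capitals mark HRE cores, ACGTG and GCGTG, or their reverse complements.
P4ha1, chr10:59323046-59323345, plus strand: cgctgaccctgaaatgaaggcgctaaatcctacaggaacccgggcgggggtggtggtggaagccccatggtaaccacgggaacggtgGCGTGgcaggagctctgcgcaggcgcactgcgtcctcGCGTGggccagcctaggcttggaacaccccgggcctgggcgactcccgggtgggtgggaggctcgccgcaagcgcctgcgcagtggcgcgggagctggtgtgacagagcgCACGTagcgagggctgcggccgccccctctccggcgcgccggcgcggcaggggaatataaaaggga
P4ha2, chr11:54100674-54100973, plus strand: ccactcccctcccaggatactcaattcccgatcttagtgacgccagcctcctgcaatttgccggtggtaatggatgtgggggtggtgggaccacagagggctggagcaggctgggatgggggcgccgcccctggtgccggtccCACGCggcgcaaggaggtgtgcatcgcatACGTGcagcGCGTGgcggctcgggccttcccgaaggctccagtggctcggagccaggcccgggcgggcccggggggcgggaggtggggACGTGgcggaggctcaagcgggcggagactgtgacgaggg
Hif1a, chr12:73907617-73907916, plus strand: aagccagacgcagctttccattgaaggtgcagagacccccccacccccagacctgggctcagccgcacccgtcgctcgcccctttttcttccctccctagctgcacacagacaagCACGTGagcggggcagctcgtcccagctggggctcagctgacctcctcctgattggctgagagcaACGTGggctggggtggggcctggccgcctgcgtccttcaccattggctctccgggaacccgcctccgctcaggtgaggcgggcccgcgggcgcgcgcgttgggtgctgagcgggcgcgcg
Vegfa, chr17:46032328-46032627, minus strand: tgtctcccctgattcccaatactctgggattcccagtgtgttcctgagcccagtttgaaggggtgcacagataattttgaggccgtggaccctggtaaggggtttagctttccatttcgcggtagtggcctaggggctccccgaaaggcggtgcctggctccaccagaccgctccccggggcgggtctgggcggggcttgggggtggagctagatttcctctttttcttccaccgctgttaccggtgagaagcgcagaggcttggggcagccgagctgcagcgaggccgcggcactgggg
Mif, chr10:75860228-75860527, minus strand: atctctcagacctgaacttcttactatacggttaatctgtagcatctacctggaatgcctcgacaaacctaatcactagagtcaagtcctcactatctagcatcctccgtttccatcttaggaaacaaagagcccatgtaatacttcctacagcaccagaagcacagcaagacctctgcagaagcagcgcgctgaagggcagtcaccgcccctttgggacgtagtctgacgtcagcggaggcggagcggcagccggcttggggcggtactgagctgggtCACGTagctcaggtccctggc
Ldha, chr7:46845554-46845853, plus strand: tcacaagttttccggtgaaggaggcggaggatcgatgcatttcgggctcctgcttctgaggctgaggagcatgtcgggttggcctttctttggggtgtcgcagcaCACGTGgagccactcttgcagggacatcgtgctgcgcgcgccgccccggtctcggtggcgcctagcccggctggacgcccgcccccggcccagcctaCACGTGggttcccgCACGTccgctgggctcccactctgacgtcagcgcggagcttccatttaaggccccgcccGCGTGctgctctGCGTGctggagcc

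Both strands were searched, so a CACGTG counts once per strand. The Ldha window holds 5 ACGTG and 2 GCGTG, the P4ha2 window 2 and 2, the P4ha1 window 1 and 2, the Hif1a window 3 and 0, and the Mif window 1 and 0. The printed Vegfa window holds neither core, which says only that these letters are not in these 300 bases; the window of a second RefSeq start of Vegfa, at chr17:46025114-46025413, holds 1 ACGTG and 1 GCGTG. RefSeq windows were matched for 33 of the 36 members and came to 47, since some genes have more than 1 start; Bnip3l, Epas1 and Ndrg1 had no entry. ACGTG was found in 53.2% of the member windows, made up of 44.1% of the 34 glycolysis windows and 76.9% of the 13 windows of other hypoxia members, against 19.6% of all 32851 windows. GCGTG was found in 57.4% of the member windows, against 32.4% of all windows. By set, it was in 55.9% of the glycolysis windows and 61.5% of the other hypoxia windows. Either core was found in 78.7% of the member windows, against 43.8% of all windows. By set, either core was in 76.5% of the glycolysis windows and 84.6% of the other hypoxia windows. The GC box GGGCGG, a letter string that Sp-family proteins are known to bind, was in 66% of the member windows, made up of 55.9% of the glycolysis windows and 92.3% of the other hypoxia windows, against 35.7% of all windows. These shares count windows, so a gene with several starts weighs more. Counted per gene, the GC box was in 76.2% of 21 glycolysis members and 91.7% of 12 other hypoxia members. Over all genes with a window it was in 38.2%. ACGTG was in 57.1% and 83.3% of these members, against 21.8% of all genes with a window. The shares were not matched for base composition, and these matches describe letters, not bound sites.

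Library totals ran from 64432348 to 87040786 counts, with 21716 to 24651 genes at 1 count or more. The level of a gene is in CPM (counts-per-million), with TMM as a correction for library composition, and a group's value is its mean ± SD (n = 3 in each group throughout). Sp8 stood at 5.86, 2.38 and 2.80 CPM in DKO 17, 40 and 41, against 34.1, 43.2 and 31.3 CPM in WT 32, 53 and 56 (log2 fold change -3.29, edgeR adjusted p = 0.000806). Sp6 stood at 133.2, 13.9 and 76.9 CPM in the DKO libraries, against 228.5, 312 and 319.9 CPM in WT (log2 fold change -1.94, edgeR adjusted p = 0.207). Both lay below every WT library, and Sp6 was uneven among the DKO libraries. Which exons the alleles remove is not given in the sources used here, so these levels check the labels only in part. In whole tissue, fewer cells of a type and less RNA per cell cannot be told apart.

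Of the 14 other hypoxia members that could be tested, 5 were lower in DKO ectoderm and 1 was higher, while none of the 20 tested glycolysis members passed the test. The lower ones were Hif1a, the alpha subunit of HIF-1; the collagen prolyl hydroxylase subunits P4ha1 and P4ha2; Ndrg1, a stress-responsive gene; and Vegfa, the growth factor of blood vessels. They were 1.62-fold to 2.71-fold lower. The cytokine gene Mif was 1.52-fold higher. The abundant enzymes of glycolysis differed by little: the 12 members at 200 CPM or more in WT had log2 fold changes between -0.39 and 0.24 on their own rows, and Gapdh was at 0.29 in place of 0.01 once its near-identical copies were added.

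The test was edgeR's quasi-likelihood test, and a gene was called at a Benjamini-Hochberg adjusted p under 0.05 over all 19126 genes tested. It called 863 genes (4.51%), of which 538 were lower in DKO (2.81%) and 325 were higher (1.7%). The 5 lower hypoxia members are 35.7% of those tested, and the 1 higher member is 7.14%. All DKO libraries lay below all WT libraries for 7 of the 14 (50%), against 11.3% of all genes tested, and above them for 1 (7.14%), against 10.6%. Of the 20 glycolysis members, 2 lay wholly below WT (10%) and 5 wholly above it (25%). Over all genes tested, the groups did not overlap in either direction for 21.9%. An unadjusted p under 0.05 was reached by 8 of the 14 hypoxia members and 5 of the 20 glycolysis members, against 18% of all genes tested. The median log2 fold change was -0.30 over the hypoxia members and 0.07 over the glycolysis members, beside 0.03 over all genes tested. Eno2 and Adm were too low to test. DESeq2, the other count test run, called 3 glycolysis members, Hk2 and Pfkfb3 lower and Pfkp higher, and 6 hypoxia members lower and 1 higher.

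**Figure D1:**
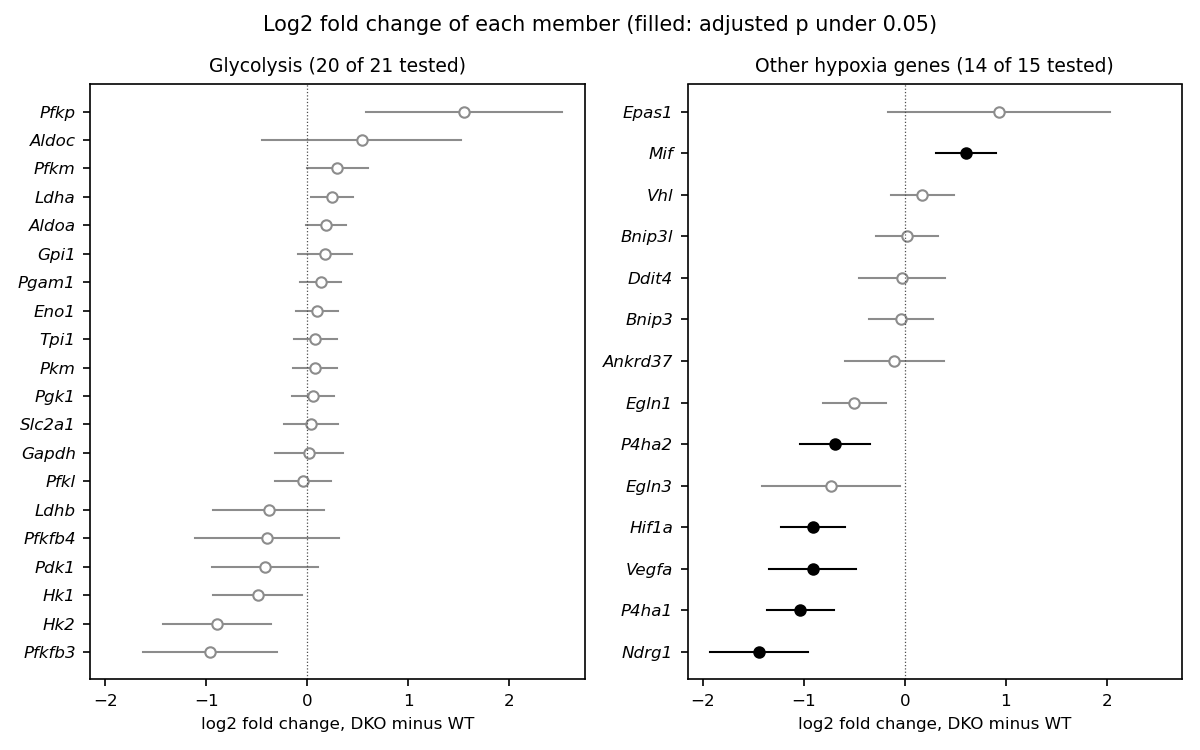
Log2 fold changes (DKO minus WT, x axis) of the 20 tested glycolysis members and the 14 tested other hypoxia members, with unadjusted 95% confidence intervals as bars; filled points have an edgeR adjusted p under 0.05. No glycolysis point is filled; on the right Ndrg1, P4ha1, Vegfa, Hif1a and P4ha2 are filled below 0 and Mif above it.

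The first step of glucose use is uptake. Slc2a1, the transporter GLUT1, stood at 427, 400.3 and 419 CPM in the DKO libraries and at 398, 355 and 466 CPM in WT, so that the groups overlapped. Its log2 fold change was 0.03 with a 95% confidence interval of -0.24 to 0.30. Slc2a3, the transporter GLUT3, which is no member but shares this step, stood at 409, 362 and 765 CPM in DKO, against 960.3, 587 and 1100 CPM in WT (log2 fold change -0.79, edgeR adjusted p = 0.220). DKO 41 lay above WT 53 here, so the groups overlapped. Per kb of exon, Slc2a1 made up 67.7%, 68% and 52.2% of the RNA of the 3 transporters counted (with Slc2a4) in DKO, against 45.5%, 54.5% and 46% in WT.

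Hexokinases trap glucose as glucose 6-phosphate. Hk2, the form tied to growing and hypoxic cells, stood at 42.9, 36.6 and 22.7 CPM in DKO, against 52, 61.6 and 75.7 CPM in WT. Every DKO library was below every WT library, but the difference did not pass the main test (log2 fold change -0.89, SE 0.24, edgeR adjusted p = 0.0720); DESeq2 gave an adjusted p of 0.00977. Hk1, the form of most tissues, averaged 24.9 ± 4.16 CPM in DKO and 35.2 ± 6.73 CPM in WT and overlapped between the groups (log2 fold change -0.49, edgeR adjusted p = 0.223). Hk2 was the main hexokinase RNA in both groups, at 62.5% ± 11.8 of the family per length in DKO and 69.5% ± 1.73 in WT. The spread in DKO came from DKO 41, where its share was 49.1%.

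Gpi1, the glucose phosphate isomerase, averaged 704 ± 101 CPM in DKO and 623 ± 20.1 CPM in WT (log2 fold change 0.18, edgeR adjusted p = 0.497). Phosphofructokinase then commits the sugar to glycolysis. Its main form Pfkl averaged 935 ± 120 CPM in DKO and 964 ± 92.1 CPM in WT. Pfkm, the muscle form, stood at 38, 43.5 and 43.5 CPM in DKO, against 33, 33.5 and 35.4 CPM in WT, without overlap (log2 fold change 0.29, edgeR adjusted p = 0.292). Pfkp, the platelet form, was low and had the largest log2 fold change among the 34 tested members, at 6.22, 7.23 and 11.3 CPM in DKO, against 2.06, 1.29 and 4.81 CPM in WT. It was above WT in each DKO library (log2 fold change 1.55, SE 0.43, edgeR adjusted p = 0.0844), and DESeq2 gave an adjusted p of 0.0253. Exons of Pfkp overlap those of Pitrm1, on the opposite strand, over 748 bases, and the library chemistry does not mark strand. Those of Pfkm overlap exons of Gm26513, on the same strand, and Senp1, on the opposite strand, over 359 bases.

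Within the phosphofructokinase family the shares per length did not overlap between the groups. Pfkl made up 92%, 90.2% and 92% of the family in DKO, against 93%, 93.3% and 93.6% in WT. Pfkm made up 8.21% ± 1.07 in DKO and 6.59% ± 0.351 in WT, and Pfkp 0.397% ± 0.0871 in DKO and 0.127% ± 0.0749 in WT. The family thus remained almost wholly Pfkl, with a shift of less than 2 points between means.

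Aldolase splits the sugar into trioses. Aldoa, nearly the only aldolase RNA in either group, stood at 2301, 2210 and 2212 CPM in DKO, against 1851, 2091 and 1970 CPM in WT. Each DKO library was above each WT library, but by a small amount (log2 fold change 0.19, SE 0.09, edgeR adjusted p = 0.316). Aldoc, the brain form, varied within DKO, at 5.92, 14.5 and 26.3 CPM, against 10.9, 10.6 and 10.9 CPM in WT (log2 fold change 0.54, edgeR adjusted p = 0.591). Tpi1, the triose phosphate isomerase, averaged 1575 ± 112 CPM in DKO and 1490 ± 47.5 CPM in WT (log2 fold change 0.08, edgeR adjusted p = 0.728).

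In the later steps of the pathway, Gapdh, the glyceraldehyde phosphate dehydrogenase and a frequent reference gene, needs its copies read beside it. Its own row averaged 291 ± 56.6 CPM in DKO and 289 ± 20.5 CPM in WT. This row held 3.22% to 4.94% of the counts of Gapdh and its 78 near-identical copies per library, most of them processed pseudogenes, and 76 of the copies had counts. With the copies added, the sum was 8009, 7954 and 7163 CPM in DKO, against 6184, 6690 and 6127 CPM in WT. The sum did not overlap between the groups and did not pass the test (log2 fold change 0.29, SE 0.09, edgeR adjusted p = 0.118), whereas the row alone gave 0.01. The level of Gapdh on its row is therefore uncertain. Copies held 20.2% of the summed counts for Bnip3l, 9.76% for Eno1, 8.83% for Pgam1 and 5.5% for Pgk1, and at most 2.3% for each other member with a copy; adding them left the calls of these members as they were.

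Pgk1, the phosphoglycerate kinase, averaged 816 ± 30.6 CPM in DKO and 785 ± 31.3 CPM in WT. Pgam1, the phosphoglycerate mutase, stood at 1717, 1611 and 1635 CPM in DKO, against 1506, 1594 and 1434 CPM in WT, without overlap (log2 fold change 0.13, edgeR adjusted p = 0.506). At the mutase step Pgam2, which is no member, was called lower and is given below with Bpgm. Enolase also has a called gene that is no member. Eno1, the most abundant enolase, averaged 7473 ± 481 CPM in DKO and 6997 ± 478 CPM in WT (edgeR adjusted p = 0.663). Eno3, the muscle enolase, stood at 159, 214 and 189 CPM in DKO, against 65.8, 105 and 78.9 CPM in WT, and was 2.25-fold higher (log2 fold change 1.17, SE 0.19, edgeR adjusted p = 0.00990). Without DKO 40, WT 32 or WT 56 its adjusted p was 0.0587, 0.0503 and 0.0671. Per length, Eno3 made up 5.03%, 7.09% and 6.71% of enolase RNA in DKO, against 2.55%, 3.56% and 3.04% in WT. Eno1 made up 80.6% ± 1.26 in DKO and 83.5% ± 0.95 in WT. Eno1b, counted apart, made up 13.1% ± 0.402 in DKO and 13.4% ± 0.448 in WT. It is a near-identical copy of Eno1 (99.48% identity), so the split between these 2 rows is uncertain. With the longest transcript as length, the Eno1 share differed by -1.54 points in place of -2.93. Eno2, the neuronal enolase, had 0, 16 and 12 counts in DKO and 0, 0 and 6 counts in WT.

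Pkm, the pyruvate kinase, averaged 6432 ± 261 CPM in DKO and 6098 ± 599 CPM in WT (log2 fold change 0.08, edgeR adjusted p = 0.750). The table counts genes, so its 2 known splice forms are not told apart. Ldha, the lactate dehydrogenase subunit that favours lactate, stood at 5647, 5054 and 5248 CPM in DKO, against 4154, 4795 and 4523 CPM in WT. Its groups did not overlap, and the difference was small and did not pass the test (log2 fold change 0.24, 95% confidence interval 0.04 to 0.45, edgeR adjusted p = 0.200). Ldhb, the subunit of oxidative tissues, stood at 129, 226 and 285 CPM in DKO, against 302, 251 and 284 CPM in WT, and was lowest in DKO 17 (log2 fold change -0.39, edgeR adjusted p = 0.465). Ldha made up 92.1% ± 2.93 of lactate dehydrogenase RNA per length in DKO and 88.3% ± 1.68 in WT, with overlap.

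**Figure D2:**
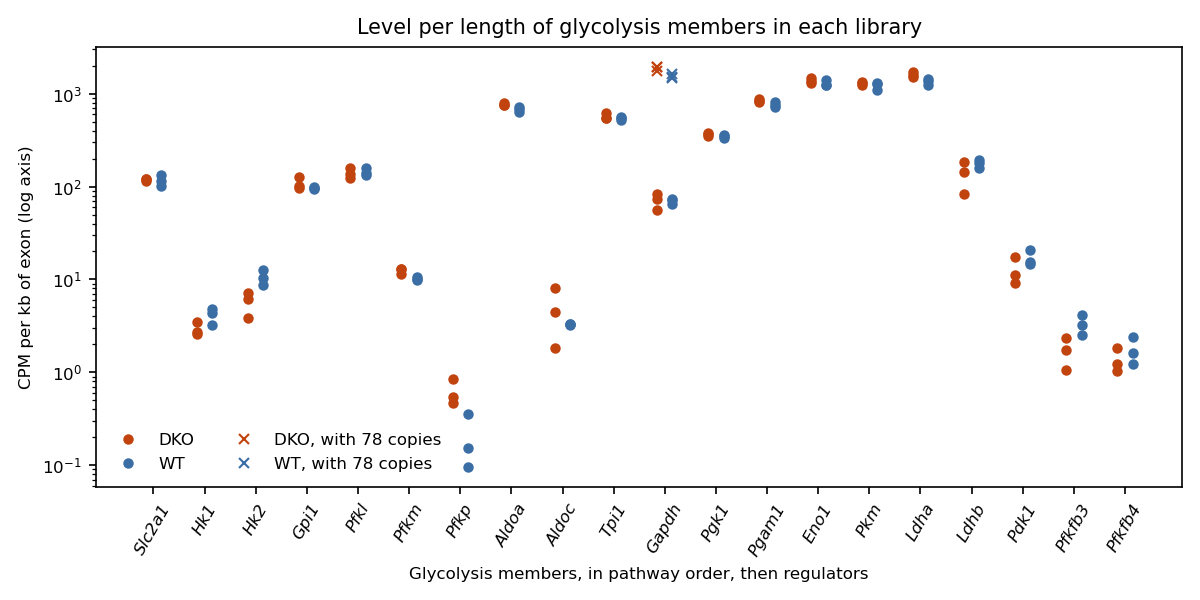
Level per kb of exon (CPM per kb, log axis) of the 20 tested glycolysis members in each library, DKO in orange and WT in blue, in the order of the pathway and then its regulators; crosses give Gapdh with its 78 copies added, divided by the exon length of Gapdh. The levels span from under 1 CPM per kb for Pfkp to over 1000 for Eno1, Pkm and Ldha in both groups, and Hk2 and Pfkfb3 are the members whose DKO points all lie below WT.

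The last glycolysis members are regulators at its edges, and none of the 3 passed the test. Pfkfb3 makes fructose 2,6-bisphosphate, the activator of phosphofructokinase, and stood at 17.5, 13.2 and 7.96 CPM in DKO, against 24.7, 19 and 31 CPM in WT. Its groups did not overlap (log2 fold change -0.97, SE 0.29, edgeR adjusted p = 0.108), and DESeq2 gave an adjusted p of 0.0342. Its share of the PFKFB family per length was 29.8%, 22.5% and 14.7% in DKO, against 44.2%, 36.2% and 41% in WT. Pfkfb1, the liver form, had the larger share in DKO at 53.1% ± 6.76 and the smaller at 33.2% ± 6.80 in WT, also without overlap. Pfkfb4 averaged 6.64 ± 1.98 CPM in DKO and 8.55 ± 2.93 CPM in WT. Pdk1, the kinase that shuts off pyruvate dehydrogenase and a known HIF target, averaged 97.5 ± 32.7 CPM in DKO and 131 ± 25.6 CPM in WT (log2 fold change -0.42, edgeR adjusted p = 0.391).

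Summed over the 21 glycolysis members, the level was 28310 ± 929 CPM in DKO and 26210 ± 1444 CPM in WT, and the ranges overlapped at 27320 to 29170 CPM in DKO and 24730 to 27620 CPM in WT. This overlap depends on the counts given to Gapdh: with its copies added, the sum was 36830, 34980 and 35370 CPM in DKO, against 30610, 34010 and 32160 CPM in WT, without overlap. That second sum would be too high if 1 read was counted at several copies. For the 12 members at 200 CPM or more in WT, the unadjusted 95% confidence intervals reached at most a 1.37-fold higher and a 1.91-fold lower level in DKO; the lower limit is that of Ldhb. These limits take Gapdh from its own row; with its copies its interval was 0.08 to 0.49 on the log2 scale, or up to 1.4-fold higher. Larger changes of these RNAs lie outside those intervals. A missed threshold does not show that the levels were equal.

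On the HIF side, Hif1a, at chr12:73901375-73947530, stood at 88.4, 68.9 and 86.9 CPM in DKO, against 160, 135 and 163 CPM in WT. The highest DKO library was well below the lowest WT library, and Hif1a RNA was 1.88-fold lower (log2 fold change -0.91, SE 0.14, edgeR adjusted p = 0.00882). Its exons overlap those of 2 other genes over 478 bases; Gm15283, on the opposite strand, stood at no more than 0.490 CPM in any library, and Gm49321 was not analysed here. Epas1, the alpha subunit of HIF-2, stood at 1.30, 1.79 and 3.44 CPM in DKO, against 0.753, 1.23 and 1.49 CPM in WT, with overlap (log2 fold change 0.94, edgeR adjusted p = 0.361). Hif1a made up 96.3%, 90.4% and 85.3% of the RNA of the 3 alpha genes per length in DKO, against 96.1%, 96.5% and 95.9% in WT. The share of Epas1 did not overlap between the groups, at 2.51% ± 1.04 in DKO and 0.776% ± 0.26 in WT.

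The oxygen sensors are the EGLN hydroxylases, and neither member among them passed the test. Egln1, the main HIF prolyl hydroxylase, stood at 101, 84 and 106 CPM in DKO, against 138, 121 and 153 CPM in WT (log2 fold change -0.50, SE 0.14, edgeR adjusted p = 0.0821), and DESeq2 gave an adjusted p of 0.0311. Egln3, the hydroxylase known to be induced by HIF, stood at 2.68, 2.43 and 1.83 CPM in DKO, against 3.40, 3.47 and 4.51 CPM in WT (log2 fold change -0.73, edgeR adjusted p = 0.239). In both genes every DKO library was below every WT library. Vhl, the substrate receptor of the ubiquitin ligase, averaged 52.2 ± 6.44 CPM in DKO and 46.3 ± 2.36 CPM in WT (log2 fold change 0.18, edgeR adjusted p = 0.580).

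Collagen prolyl hydroxylases let collagen form stable triple helices, and their catalytic subunits are known HIF targets. P4ha1, at chr10:59323296-59373304, stood at 61.7, 82.1 and 74.1 CPM in DKO, against 140, 135 and 171 CPM in WT. It was 2.04-fold lower (log2 fold change -1.03, SE 0.15, edgeR adjusted p = 0.00667). P4ha2, at chr11:54100095-54131665, stood at 52.9, 51.8 and 45.3 CPM in DKO, against 66.1, 82.9 and 93.3 CPM in WT. It was 1.62-fold lower (log2 fold change -0.69, SE 0.15, edgeR adjusted p = 0.0396). Neither gene overlapped between the groups, and P4ha1 remained the larger of the pair at 68.6% ± 4.07 of their RNA per length in DKO and 73.6% ± 2.55 in WT.

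Ndrg1, at chr15:66929318-66969640, codes for a cytoplasmic protein whose RNA rises in many cells at low oxygen and on differentiation. It stood at 11.1, 13.3 and 17 CPM in DKO, against 36, 31.1 and 45.1 CPM in WT, and had the largest fall among the 34 tested members (2.71-fold lower, log2 fold change -1.44, SE 0.21, edgeR adjusted p = 0.00768). Its exons overlap those of Gm17035 and Gm2895 on the opposite strand over 556 bases, and those stood at 0 counts and at no more than 1.14 CPM in every library. Vegfa, at chr17:46016993-46032369, stood at 16.5, 16.7 and 16.8 CPM in DKO, against 35.7, 23.5 and 34.2 CPM in WT. The DKO libraries were nearly alike and all below WT (1.87-fold lower, log2 fold change -0.91, SE 0.19, edgeR adjusted p = 0.0315). Adm, the vessel peptide adrenomedullin, had 0, 8 and 0 counts in DKO and 42, 0 and 45 counts in WT, too few to test.

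Mif, at chr10:75859353-75860240, codes for a small secreted cytokine and is a known HIF target. It stood at 1519, 1691 and 1285 CPM in DKO, against 945, 1116 and 894 CPM in WT, without overlap (1.52-fold higher, log2 fold change 0.61, SE 0.13, edgeR adjusted p = 0.0341). With its 4 near-identical copies added, the log2 fold change was 0.60 and the edgeR adjusted p 0.0382. Per kb of exon, Mif averaged 2011 ± 273 CPM in DKO and 1322 ± 156 CPM in WT, a WT level close to that of Ldha at 1357 ± 97.2.

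The remaining targets overlapped between the groups. Bnip3 and Bnip3l, mitochondrial proteins that mark mitochondria for removal, averaged 152 ± 20.1 and 262 ± 44.4 CPM in DKO, against 156 ± 20.3 and 258 ± 18.4 CPM in WT. Ddit4, an inhibitor of the growth kinase mTORC1, averaged 44.7 ± 9.37 CPM in DKO and 45.3 ± 6.51 CPM in WT. Ankrd37, an ankyrin repeat protein gene with a known HIF site, averaged 8.05 ± 0.34 CPM in DKO and 8.56 ± 1.41 CPM in WT. Exons of Ankrd37 overlap those of Lrp2bp and Ufsp2, on the opposite strand, over 406 bases. The log2 fold changes of Bnip3, Bnip3l, Ddit4 and Ankrd37 lay between -0.10 and 0.02, and the direction of each flipped under at least 1 alternative. All 15 hypoxia members summed to 2303, 2535 and 2220 CPM in DKO, against 2004, 2178 and 2092 CPM in WT. In that sum, of which Mif was the largest member, every DKO library lay above every WT library. Without Mif, the other 14 hypoxia members summed to 784, 845 and 935 CPM in DKO, against 1059, 1063 and 1198 CPM in WT. This smaller sum lay wholly below WT in DKO, and it holds the members called lower.

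**Figure D3:**
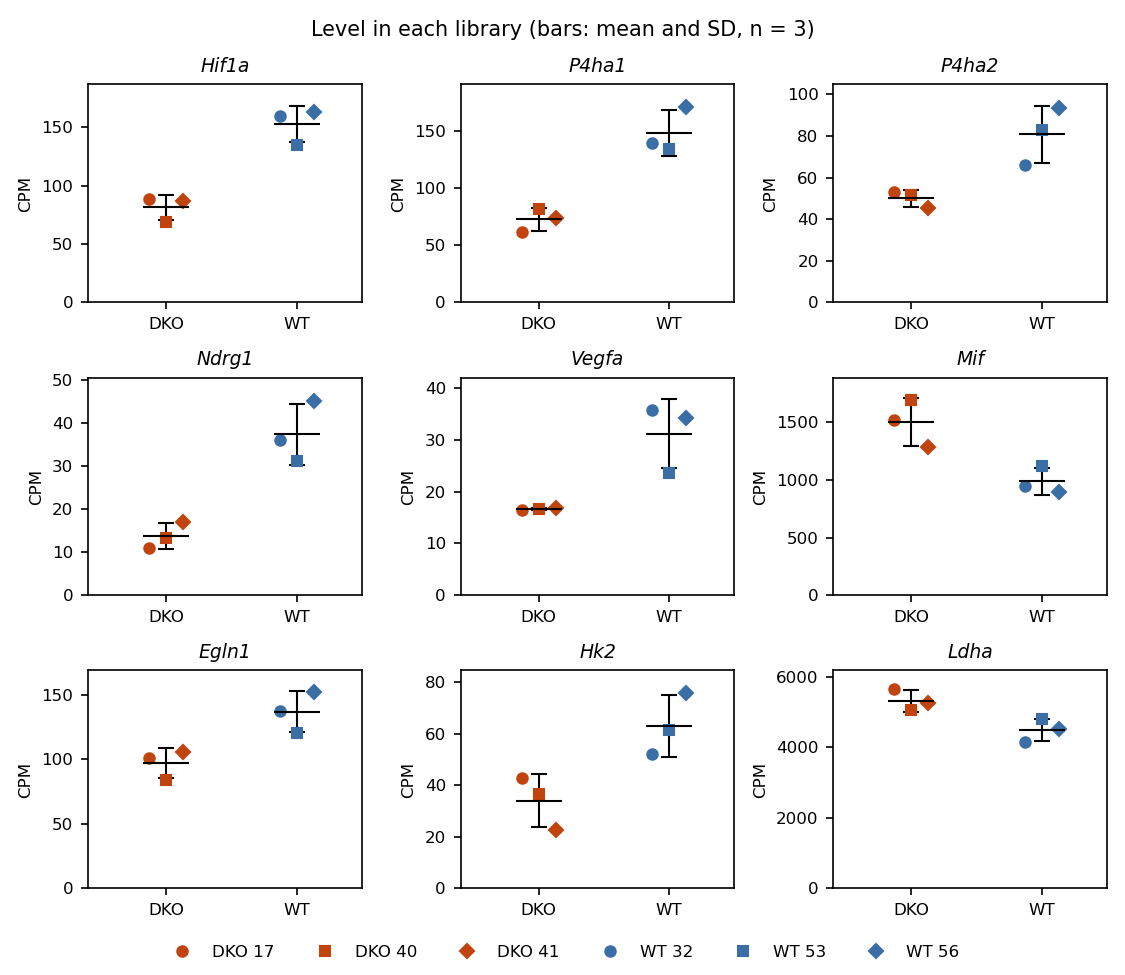
Level in each library (CPM, linear axes from 0) of 9 members, with DKO left of WT, 1 symbol per library and the mean and SD of each group as bars. In Hif1a, P4ha1, P4ha2, Ndrg1, Vegfa, Egln1 and Hk2 each DKO library lies below each WT library; in Mif and Ldha each lies above, with edgeR adjusted p = 0.200 for Ldha.

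How far these calls rest on single libraries differed. P4ha1 was called with any 1 of the 6 libraries left out, with edgeR adjusted p from 0.0168 to 0.0353. Ndrg1 lost its call without DKO 40 (adjusted p = 0.0508), and Hif1a without WT 32 (0.0519) or WT 56 (0.0534). Mif lost it without DKO 17 (0.0661), DKO 40 (0.162), WT 32 (0.168) or WT 56 (0.191). Vegfa kept it only without WT 53 (0.0163), and lost it without DKO 17 (0.0709), DKO 40 (0.132), DKO 41 (0.0613), WT 32 (0.139) or WT 56 (0.148). P4ha2 kept it only without WT 32 (0.0482), and lost it without DKO 17 (0.0653), DKO 40 (0.144), DKO 41 (0.0932), WT 53 (0.101) or WT 56 (0.188). None of the 6 changed direction in any of these fits.

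Levels can be ordered across genes only per length. Ldha stood at 1606 ± 91.4 CPM per kb of exon in DKO and 1357 ± 97.2 in WT, Mif at 2011 ± 273 in DKO and 1322 ± 156 in WT, Eno1 at 1389 ± 89.5 in DKO and 1301 ± 88.9 in WT, and Pkm at 1286 ± 52.2 in DKO and 1219 ± 120 in WT. By their own rows these were the 4 highest members in both groups; in WT they did not differ beyond their spread, and in DKO Mif came first. With its copies added, Gapdh would stand at 1865 ± 115 CPM per kb in DKO and 1533 ± 75 in WT, above Ldha, Eno1 and Pkm in both groups. That level would be too high if 1 read was counted at several copies, so its rank is uncertain. Pgam1, Aldoa, Tpi1 and Pgk1 followed at 835, 770, 572 and 364 CPM per kb in DKO, and at 763, 677, 541 and 350 CPM per kb in WT. All 8 lay within the top 1% of the genes tested by WT level per length. Hif1a was at 13.8 ± 1.85 CPM per kb in DKO and 25.9 ± 2.60 in WT. Epas1 and Pfkp were the lowest tested members, at 0.389 and 0.617 CPM per kb in DKO and 0.207 and 0.203 CPM per kb in WT.

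**Figure D4:**
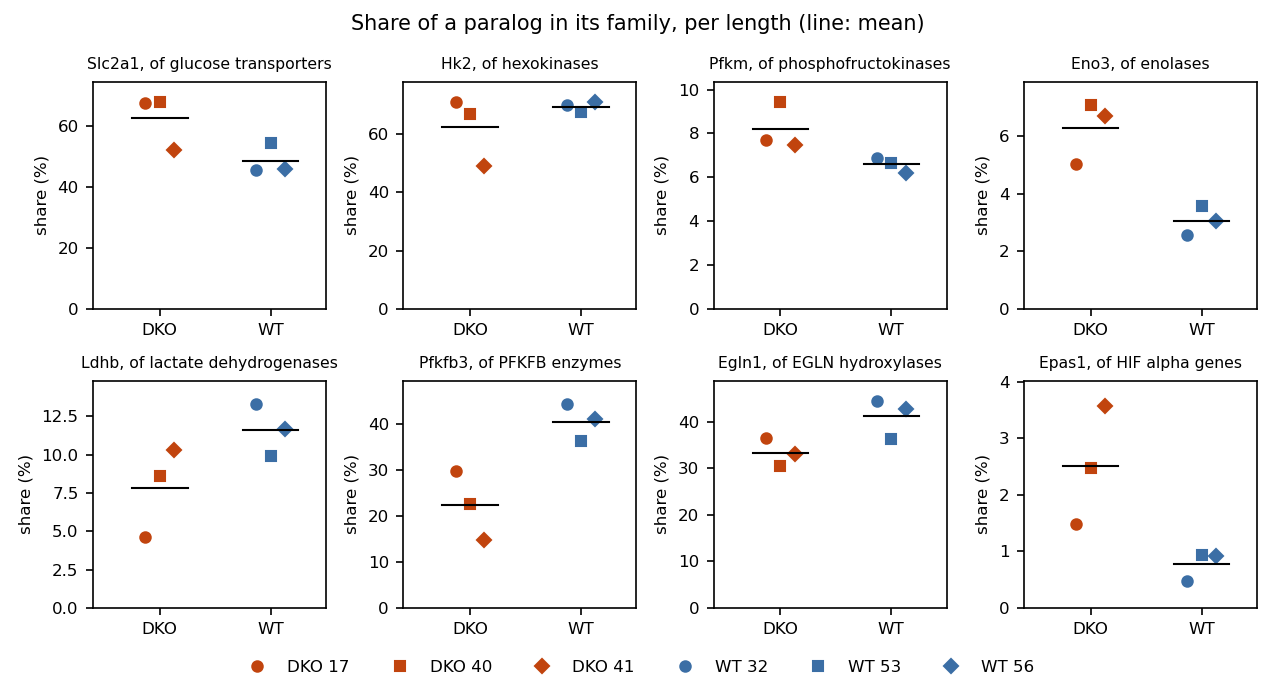
Share of 1 gene in the RNA of its family, computed per kb of exon (percent, axes from 0), in each library, DKO left of WT, with a line at the mean. The shares of Pfkm, Eno3 and Epas1 lie higher in every DKO library and that of Pfkfb3 lower, while those of Slc2a1, Hk2, Ldhb and Egln1 overlap between the groups.

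Neighbouring pathways were read from gene lists. Over all genes tested, 1.7% were called higher and 2.81% lower. Among 18 other tested genes of glycolysis and lactate export, 1 was higher (Eno3, 5.56%) and 2 were lower (11.1%). These were Pgam2, the muscle mutase, at 3.05 ± 0.922 CPM in DKO and 7.76 ± 1.6 CPM in WT (log2 fold change -1.36, edgeR adjusted p = 0.0393), and Bpgm, which makes 2,3-bisphosphoglycerate, at 47.6 ± 1.47 CPM in DKO and 68.4 ± 5.12 CPM in WT (log2 fold change -0.52, edgeR adjusted p = 0.0466). Bpgm was not called with any 1 library left out (adjusted p from 0.0684 to 0.185), and Pgam2 was not called without DKO 17 (0.0879), DKO 40 (0.144), WT 32 (0.147) or WT 56 (0.171). None of 12 genes of pyruvate entry, 17 genes of the citric acid cycle and 7 genes of the pentose phosphate pathway was called. The most abundant of these were Pdhb at 190 ± 13.8 CPM in DKO and 180 ± 14.7 CPM in WT, Mdh2 at 815 ± 86 CPM in DKO and 801 ± 56.9 CPM in WT, and Tkt at 459 ± 89.1 CPM in DKO and 443 ± 21.2 CPM in WT. At an unadjusted p under 0.05 there were 0, 3 and 1 genes in these lists, where 18% of all genes tested reached it. Of 4 tested genes of gluconeogenesis 1 was lower, Pck1, with 0 counts in every DKO library and 0.637 ± 0.347 CPM in WT, at least 52.9-fold lower against a floor of 3 counts over the group (edgeR adjusted p = 0.0485). That call was lost with any 1 library left out (adjusted p from 0.0895 to 0.152).

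None of 12 other regulators of HIF was called. The most abundant was Rbx1, a ubiquitin ligase subunit, at 269 ± 25.5 CPM in DKO and 255 ± 16.9 CPM in WT. Of the 12, 2 had an unadjusted p under 0.05, where 18% of all genes tested had one. Of 29 other tested HIF targets, 3 were lower (10.3%) and 1 was higher (3.45%), against 2.81% and 1.7% of all genes tested. The DKO libraries lay wholly below WT for 9 (31%) and wholly above it for 4 (13.8%). Over all genes tested these shares were 11.3% and 10.6%. Lox, a collagen cross-linking enzyme, was at 0.0538 ± 0.049 CPM in DKO and 0.691 ± 0.187 CPM in WT (log2 fold change -3.72, edgeR adjusted p = 0.0207). Car12, a carbonic anhydrase, was at 10, 3.08 and 7.93 CPM in DKO, against 25.7, 17.2 and 46.6 CPM in WT (log2 fold change -2.09, edgeR adjusted p = 0.0318). Mxi1, an antagonist of MYC, was at 32.1, 30.1 and 39.4 CPM in DKO, against 49.6, 58.8 and 60.5 CPM in WT (log2 fold change -0.73, edgeR adjusted p = 0.0322). Cxcr4, the receptor of the chemokine CXCL12, was higher at 1.42 ± 0.485 CPM in DKO and 0.246 ± 0.0697 CPM in WT (log2 fold change 2.46, edgeR adjusted p = 0.0299). Each of the 4 lost its call without DKO 40, without WT 32 and without WT 56, with adjusted p up to 0.131 for Lox, 0.126 for Car12, 0.152 for Mxi1 and 0.171 for Cxcr4. Lox, Mxi1 and Cxcr4 also lost it without DKO 17 (0.0640, 0.0774 and 0.0574), Car12 without DKO 41 (0.0760), and Mxi1 and Cxcr4 without WT 53 (0.0892 and 0.101). With all libraries, legacy=TRUE in edgeR gave adjusted p of 0.159 for Lox, 0.0821 for Car12, 0.0501 for Mxi1 and 0.0510 for Cxcr4, voom 0.133 for Lox, 0.0610 for Car12 and 0.0976 for Cxcr4, and no filter on low counts 0.106 for Car12, 0.0723 for Mxi1 and 0.0638 for Cxcr4. The list's median log2 fold change was -0.08, beside 0.03 over all genes tested. Of 8 tested receptors of Vegfa, Adm and Mif none was called and 2 had an unadjusted p under 0.05, beside the same 18% of all genes tested. The most abundant, Nrp2, stood at 14.6, 12 and 20.2 CPM in DKO, against 40.3, 21.3 and 36.5 CPM in WT (edgeR adjusted p = 0.0646).

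Cell-type markers also moved between the groups. The 11 markers of the apical ridge summed to 278 to 474 CPM in DKO, against 2050 to 2514 CPM in WT. Of them 8 were lower (72.7%), against 2.81% of all genes tested. The 8 include Sp8, which by the labels is itself knocked out. Fgf4 had 0 counts in every DKO library and 36.3, 12.2 and 70.5 CPM in WT, Fgf8 stood at 13.5, 0.261 and 0.930 CPM in DKO, against 1181, 1209 and 1387 CPM in WT, and Rspo2 and Cd44 were 109-fold and 20.7-fold lower. The 14 ectoderm markers summed to 2941 to 4103 CPM in DKO, against 4523 to 4938 CPM in WT, with Epcam, Cdh1 and Perp lower and Krt8 higher. Epcam, Cdh1, Perp and Krt8 each lost the call without DKO 40, without WT 32 and without WT 56. Their edgeR adjusted p with a library left out reached 0.123, 0.171, 0.110 and 0.163. With all libraries, no filter on low counts lost the calls of Cdh1, Perp and Krt8, legacy=TRUE those of Cdh1 and Perp, and voom that of Cdh1. Markers of red blood cells summed to 25.8, 109.7 and 870.1 CPM in DKO, against 0.591, 297 and 0.710 CPM in WT. Endothelial markers summed to 54.6 to 79.3 CPM in DKO, against 33.6 to 48.4 CPM in WT, mostly from Egfl7. Of these, Sox17, which endoderm also expresses, was called higher, at 7.96, 4.16 and 1.83 CPM in DKO, against 0.0579, 0.3 and 0.229 CPM in WT (log2 fold change 4.62, edgeR adjusted p = 0.0123), and lost its call without WT 32 (0.111) or WT 56 (0.0867). Its exons overlap those of Gm37587 on the opposite strand over 804 bases. Cdh5, a defining marker, had 0 counts in every library, and Pecam1 stood under 1 CPM. The 12 mesenchyme markers summed to 149 to 306 CPM in DKO, against 179 to 277 CPM in WT, but its genes did not share a direction. Pdgfra was lower, at 2.57, 10.1 and 10.3 CPM in DKO, against 67.8, 37.4 and 94.5 CPM in WT (edgeR adjusted p = 0.00696; its exons overlap other genes over 652 bases), and Meox1 was lower, at 24.6, 13 and 12 CPM in DKO, against 52.5, 80.2 and 69.4 CPM in WT (edgeR adjusted p = 0.00579). Prrx2 and Twist1, named after their values were seen, lay wholly above WT without passing the test, at 83, 174 and 65.4 CPM and 20.4, 46.7 and 21.4 CPM in DKO, against 49.4, 37.3 and 18.5 CPM and 14.8, 3.06 and 1.47 CPM in WT (edgeR adjusted p = 0.0906 and 0.135). Macrophage markers stayed under 4 CPM in sum, with C1qa at 0; neural crest markers summed to 38.9 to 47.3 CPM in DKO, against 37.3 to 40.3 CPM in WT, with Foxd3 at 0. Genes that respond to tissue handling summed to 395 to 455 CPM in DKO, against 440 to 533 CPM in WT, with Jun lower. Jun lost its call without DKO 17, DKO 40, WT 32 or WT 56 (edgeR adjusted p up to 0.183), and with legacy=TRUE, voom and no filter. Without both WT 32 and DKO 41, a pair chosen for their mesenchyme and globin RNA, the log2 fold changes were -1.12 for P4ha1 and -0.95 for Hif1a, and the adjusted p 0.0513 and 0.0636. In that fit P4ha2, Vegfa and Mif also lost their calls (edgeR adjusted p = 0.0704, 0.168 and 0.0673), and Ndrg1 kept its call. The fit still held DKO 40, with the highest mesenchyme sum (306 CPM), and WT 53, with 297 CPM of red blood cell markers. The part of these cell types in the changes of the members was not tested.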

How the data were processed

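The authors deposited whole-number read counts per gene for 6 libraries. The submitters' processing notes name HISAT2, StringTie, Cufflinks, DESeq2, fastp and FastQC and the builds GRCm38 and mm10; what each did and what wrote the counts is not given in the sources used. Per the labels' protocols, SMART-Seq v4 and Nextera XT made the libraries, which mark no strand and carry no molecular identifiers, so PCR copies are counted as reads and a floor of 3 counts covers counting error only. Columns were matched to groups by name. Their numbers match no replicate number of the labels. Every pair of libraries differed by more than sampling noise in a chi-square test over genes, so all 6 were kept.

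The members, gene lists and tests were chosen with earlier results of these data known. Every member is named; values of each library are given for members that were called or did not overlap between groups, and, of the other lists, called genes are named (at most 4 a list, by size of log2 fold change), or the most abundant gene where none was called. Fold changes (log2, DKO minus WT) and Benjamini-Hochberg adjusted p-values come from edgeR 4.0.16 in R 4.3.3 (filterByExpr, TMM, glmQLFit with robust=TRUE and legacy=FALSE, glmQLFTest) on all 19126 genes left by the filter. Alternatives used limma 3.58.1 and DESeq2 1.42.0. The fits were tested on simulated data first, where DESeq2 made a larger share of false calls than edgeR and edgeR missed many changes of small size. Positions, exon lengths and overlaps came from GENCODE M21 (GRCm38), with 55141 of 55401 identifiers matched. A level per length is CPM per kb of merged exons. Near-identical copies were found with BLAST+ 2.17.0 at 95% identity or more over at least 100 bases, and over 300 bases or 80% of the copy. Promoter windows came from RefSeq on GRCm38.p6. Aldoa occurs on 2 rows, and the more abundant row was used. 1 marker gene of another cell type is not reported here.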

Additional observations from a re-analysis of the deposited data

How the results depend on the processing

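Beside 325 genes called higher and 538 lower, DESeq2 called 754 and 984, legacy=TRUE in edgeR 200 and 346, no filter on low counts 116 and 296, and the fit without both WT 32 and DKO 41 95 and 282; limma voom called 205 higher. With 1 library left out the counts ran from 53 (without WT 56) to 332 (without DKO 17) higher and from 194 (without WT 56) to 592 (without DKO 41) lower; without DKO 40 they were 85 and 210, without WT 32 71 and 242, and without WT 53 151 and 383. DESeq2 called 1 glycolysis member higher and 2 lower; every other fit called 0. Of the hypoxia members, legacy=TRUE called 0 higher and 3 lower, no filter 0 and 3, the fit without both WT 32 and DKO 41 0 and 1, and fits with 1 library left out 0 to 1 higher and 2 to 4 lower. The causes were not tested.

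Log2 fold changes near 0 changed sign in some fits. Without both WT 32 and DKO 41 they were -0.11 for Aldoc, 0.0063 for Ankrd37, -0.18 for Bnip3l, -0.0004 for Gpi1, -0.0305 for Pgk1, -0.058 for Pkm and -0.023 for Slc2a1. Upper-quartile scaling gave 0.0065 for Bnip3 and 0.021 for Ddit4, and Gapdh was at -0.0004 with DESeq2, -0.0071 with voom and -0.0026 with no filter. With 1 library left out, Aldoc ran from -0.10 to 0.93, Bnip3 from -0.14 to 0.063, Bnip3l from -0.14 to 0.10, Ddit4 from -0.16 to 0.14, Gapdh from -0.12 to 0.15, Pfkl from -0.16 to 0.035, Pkm from -0.026 to 0.13 and Slc2a1 from -0.057 to 0.13. The other members kept their sign in every fit run. Beyond the single libraries, P4ha2 lost its call with upper-quartile scaling (adjusted p = 0.0518), legacy=TRUE (0.0607), voom (0.0555) and no filter (0.0964), Vegfa with legacy=TRUE (0.0529) and no filter (0.0736), and Mif with legacy=TRUE (0.0671) and no filter (0.0738). Taking exon length from the longest transcript moved the Eno1 share difference to -1.54 points, beside -2.93. Adding near-identical copies, an alternative chosen after seeing the data, changed no call of a member. No paired analysis was possible because the column numbers match no replicate number of the labels. Eno2 and Adm had too few counts to test.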
